A study of Mus musculus with 9 samples.

Results

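The immediate early genes Egr1, Dusp1, Fos, Jun, Junb, Ier2, Ier3 and Atf3 were followed by RNA sequencing in Ras-transformed mouse prostate cancer cells that had been transfected to make the cytokine IL-27. The 8 genes were taken by name from the deposited count table, in which each has 1 row, out of 12125 genes in all. The cells, TC2R, are a line derived from TRAMP-C2 (C57/BL6 mouse prostate cancer) by lentiviral transfer of H-ras G12V and mouse androgen receptor, each at a multiplicity of infection of 1, so that all groups carry both. Cells of the first group received a plasmid for IL-27 that ends in the pepL peptide, which targets the cytokine to IL-6Rα (IL27_pepL, 3 libraries). Cells of the next group received IL-27 with a non-specific peptide at the same end (IL27_scr, 3 libraries). The controls received the empty plasmid (plasmid control, 3 libraries). Each well was given 1.5 µg of plasmid and 2 µL of Lipofectamine 2000 for 6 h, and total RNA was collected 24 h after the start. The groups thus share the Ras allele, the receptor, the lipid reagent and the presence of foreign DNA, and no untransfected cells are among the samples analysed here.

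Immediate early genes are transcribed within minutes of a growth factor, cytokine or stress signal without new protein synthesis, mainly through serum response factor with its ETS partners and through CREB, downstream of MAP kinases. Their transcripts are short lived, and several encode transcription factors or inhibitors of the same signal, so that the response is usually brief. Ras, when active, feeds the ERK branch of this pathway. Among the genes described here, Egr1 encodes a zinc-finger transcription factor, Fos, Jun and Junb encode subunits of the dimeric transcription factor AP-1, Atf3 encodes a stress-induced factor of the ATF/CREB family that can pair with Jun proteins, Dusp1 encodes a nuclear phosphatase that inactivates MAP kinases, Ier2 encodes a small nuclear protein, and Ier3 encodes a protein linked to cell survival.

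The promoters of Dusp1, Fos and Jun are shown because Dusp1 was among the 2 genes whose level differed between groups, whereas Fos and Jun, the paired subunits of AP-1, did not pass the test. Each is the 250 bases before the annotated start, 5′ to 3′ on the strand of the gene, from RefSeq (GRCm38.p6). Capitals mark matches to the cAMP response element TGACGTCA or its core TGACG, and to the TATA box TATAAA.
Dusp1, chr17:26508473-26508722, minus strand: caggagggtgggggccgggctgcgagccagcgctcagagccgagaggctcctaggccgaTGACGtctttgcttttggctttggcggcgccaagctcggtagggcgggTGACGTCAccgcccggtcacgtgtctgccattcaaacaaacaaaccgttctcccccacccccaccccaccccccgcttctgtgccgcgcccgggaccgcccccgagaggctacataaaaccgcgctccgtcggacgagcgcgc
Fos, chr12:85473640-85473889, plus strand: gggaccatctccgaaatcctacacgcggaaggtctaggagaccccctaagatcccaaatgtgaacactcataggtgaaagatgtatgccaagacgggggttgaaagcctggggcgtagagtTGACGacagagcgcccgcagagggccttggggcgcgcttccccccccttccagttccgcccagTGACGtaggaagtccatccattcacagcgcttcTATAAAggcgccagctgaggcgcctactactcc
Jun, chr4:95052223-95052472, minus strand: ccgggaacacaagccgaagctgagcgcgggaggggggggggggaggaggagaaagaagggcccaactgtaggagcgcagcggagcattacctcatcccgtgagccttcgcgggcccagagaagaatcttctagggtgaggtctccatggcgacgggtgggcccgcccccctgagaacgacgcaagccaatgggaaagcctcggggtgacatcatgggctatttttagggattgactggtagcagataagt

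RefSeq promoters were held for 6 of the 8 genes and were searched on both strands over 300 bases, the 250 above and the first 50 of the transcript; those of Egr1 and Ier2 were not analysed here. The full cAMP response element was found in Dusp1 alone, 143 bases before the start, and in 1.79% of 32851 promoters and 3.10% of the 11860 that belong to genes of the table. Its core TGACG, which the full element contains, was found in Dusp1, Fos, Junb and Atf3 (4 of 6), in 20.8% of all promoters and in 31.5% of those of the table. TATAAA was present in Fos, 33 bases before the start, and at the RefSeq start of Junb, against 13.6% of all promoters and 6.96% of those of the table. The RefSeq start of Junb lies upstream of the start in the gene annotation given below (84978718, minus strand), so its TATAAA lies before that start. The GC box GGGCGG was found in 5 of 6, with Junb lacking it, against 35.7% of all promoters and 63.7% of those of the table. Letters for the CArG box bound by serum response factor, for AP-1 (TGANTCA), for the STAT site (TTCNNNGAA), for EGR1 (GCGGGGGCG), for the interferon-stimulated response element and for ETS factors (CCGGAAG) were in 0 of the 6 windows. Across all promoters these were in 1.63%, 7.81%, 8.3%, 2.91%, 3.44% and 8.86%, in the same order, and in those of the table in 1.2%, 5.19%, 6.77%, 5.49%, 2.92% and 17.6%. These matches describe the letters of the windows only.

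In the mm10 build, Egr1 lies on chromosome 18 (34859823 to 34864984, plus strand), Fos on chromosome 12 (85473890 to 85477273, plus), Jun on chromosome 4 (95049034 to 95052222, minus) and Junb on chromosome 8 (84974484 to 84978718, minus). Atf3 lies on chromosome 1 (191170296 to 191218039, minus), Dusp1 on chromosome 17 (26505590 to 26562128, minus), Ier2 on chromosome 8 (84661331 to 84662852, minus) and Ier3 on chromosome 17 (35821684 to 35822923, plus). The genes have few exons. Jun, Junb and Ier2 have 1 exon in their longest basic coding transcript, Egr1 and Ier3 have 2, and Dusp1, Fos and Atf3 have 4, against a median of 9 exons over the 11694 genes of the table that matched the annotation by symbol. Of those genes, 22.3% have 4 exons or fewer and 7.97% have 2 or fewer. Transcript length ran from 1131 bases for Ier3 to 4484 bases for Egr1. The pentamer ATTTA, the core of AU-rich elements that mark short-lived transcripts, occurred in the 3′ UTR of 7 of the 8 genes, from 2 copies in Egr1 and Junb to 5 in Ier3, and was not found in that of Ier2. At least 1 copy was present in 70.8% of 11284 genes with an annotated 3′ UTR, so presence alone did not set these genes apart, and the density was 3.42 copies per kilobase over the 8 genes against 1.84 over all genes.

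Levels are given as counts per 1000000 (CPM). Library totals ran between 30013229 and 34164353 counts for IL27_pepL, 30087806 and 35959983 for IL27_scr, and 27609884 and 35078027 for plasmid control. The transgenes followed the labels. Raw Il27 counts were 237 to 252 in IL27_pepL, 179 to 244 in IL27_scr and 0 to 1 in plasmid control. Raw counts of Ebi3, the other IL-27 chain, were 314 to 419 in IL27_pepL, 266 to 269 in IL27_scr and 0 to 2 in plasmid control. Each IL27_pepL library thus had more Ebi3 counts than any IL27_scr library. The part of this transgene difference in the results below was not tested. Replicate 3 of IL27_pepL stood farthest out on the first principal component (23.3, against −12.8 to 8.85 in the other 8 libraries). Longer transcripts had relatively lower counts in it (−0.107 log2 CPM for each doubling of length, with GC content in the same fit). This slope was 0.0247 and −0.0446 in IL27_pepL replicates 1 and 2. It was −0.00449 to 0.0537 in IL27_scr and 0.0172 to 0.0351 in plasmid control. Of the epithelial markers Krt8, Krt19 and Cdh1 were measured, 3 of 7 listed, at a summed 7.96 to 8.88 CPM in IL27_pepL, 7.15 to 7.84 in IL27_scr and 6.67 to 8.50 in plasmid control, while Krt18, Epcam, Cldn3 and Cldn7 were not among the genes analysed. All 7 mesenchymal markers were measured, with Vim at a mean of 2933 CPM, and summed to 4040 to 4440 CPM in IL27_pepL, 3902 to 3967 in IL27_scr and 3886 to 4021 in plasmid control; the part of this difference in the results below was not tested. Of leukocyte markers 1 of 7 was measured (Cd68, 5.85 to 7.93 CPM over the 9 libraries), of endothelial markers 2 of 3, and of neuroendocrine markers 0 of 3, and no marker of any list passed the test in any comparison. The ribosomal precursor transcript Rn45s took 0.286% to 0.474% of counts in IL27_pepL, 0.313% to 0.405% in IL27_scr and 1.21% to 1.49% in plasmid control. With it and the transgenes removed, Egr1 and Dusp1 were called with the same direction in both IL27_pepL comparisons.

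Egr1 and Dusp1 were higher in cells that made IL-27 with the pepL peptide, and the other 6 genes did not pass the test. Egr1 was 1.61-fold and Dusp1 1.50-fold the plasmid control level, and they were 1.6-fold and 1.43-fold the IL27_scr level. Against plasmid control 2 of the 8 genes were called, both higher, at a Benjamini-Hochberg adjusted p under 0.05 in the quasi-likelihood test of edgeR, where 1.62% of all genes were called (197 of 12125, with 0.429% higher and 1.2% lower). Against IL27_scr the same 2 were called, where 2.52% of all genes were (306, with 1.09% higher and 1.44% lower). The median log2 fold change of the 8 genes was 0.14 against plasmid control and 0.09 against IL27_scr, beside 0.00 for all genes in the first. The 2 comparisons share the IL27_pepL libraries and are not independent. A higher level in the RNA of a whole well cannot tell apart more RNA per cell and more cells that express the gene.

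Egr1 measured 923.7, 860.4 and 775.0 CPM in IL27_pepL, 568.0, 476.4 and 557.1 CPM in IL27_scr, and 532.5, 476.4 and 582.5 CPM in plasmid control. The lowest IL27_pepL library was above the highest of either other group, whose libraries overlapped each other. Group means were 853 ± 74.6 CPM in IL27_pepL, 534 ± 50.1 CPM in IL27_scr and 530.5 ± 53.1 CPM in plasmid control (SD, n = 3 each). The log2 fold change was 0.69 ± 0.09 (SE; 95% interval 0.50 to 0.87, adjusted p = 0.00207) against plasmid control and 0.68 ± 0.09 (0.49 to 0.86, adjusted p = 0.00208) against IL27_scr. Egr1 rested on 14246 to 31564 reads per library, so counting error was small beside the spread between libraries.

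Dusp1, the MAP kinase phosphatase, measured 78.0, 78.4 and 75.8 CPM in IL27_pepL, 54.4, 52.5 and 55.5 CPM in IL27_scr, and 52.3, 47.4 and 55.5 CPM in plasmid control. The 3 IL27_pepL libraries lay within a narrow band well above the others. Group means were 77.4 ± 1.41 CPM in IL27_pepL, 54.1 ± 1.52 CPM in IL27_scr and 51.7 ± 4.12 CPM in plasmid control (SD, n = 3 each). The log2 fold change was 0.58 ± 0.06 (95% interval 0.46 to 0.71, adjusted p = 3.23e-04) against plasmid control and 0.52 ± 0.06 (0.39 to 0.64, adjusted p = 0.00120) against IL27_scr. By p-value it ranked sixth of all genes in both. The annotated span of Dusp1 overlaps Ergic1 on the opposite strand, and Ergic1 had a log2 fold change of −0.01 ± 0.04 against plasmid control (adjusted p = 0.939).

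The groups did not overlap for Egr1, Dusp1 and Fos against plasmid control (3 of 8, where 24% of all genes did not overlap) and for Egr1, Dusp1, Fos and Ier2 against IL27_scr (4 of 8, where 26% did not), in each case with IL27_pepL above, as for 10.7% and 11.7% of all genes. The 8 genes together took 0.201% to 0.210% of counts in IL27_pepL, 0.164% to 0.178% in IL27_scr and 0.159% to 0.174% in plasmid control. Their summed level was 2066 ± 28.6 CPM in IL27_pepL, 1706 ± 71.7 CPM in IL27_scr and 1678 ± 85.1 CPM in plasmid control (SD, n = 3 each). Egr1 gave the largest share of this sum and most of its difference between IL27_pepL and the other groups. Its means were 853 CPM in IL27_pepL, 534 CPM in IL27_scr and 530.5 CPM in plasmid control, so the sum does not show a rise of the genes as a class.

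**Figure D1:**
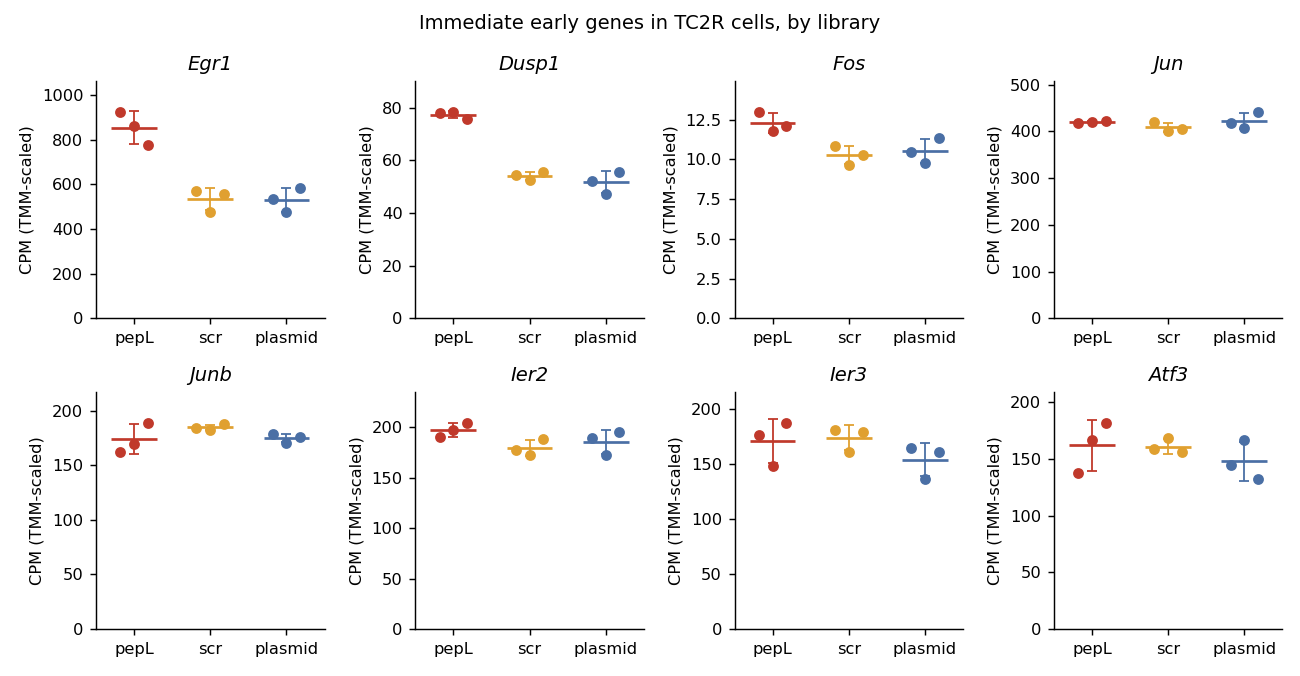
Level of each immediate early gene in counts per 1000000 (CPM) by library, in 8 panels with IL27_pepL, IL27_scr and plasmid control from left to right; points are libraries and bars the group mean and SD, and each vertical axis has its own range. The IL27_pepL points of Egr1 (775.0 to 923.7 CPM), Dusp1 and Fos sit above those of both other groups, and the groups overlap for Jun, Ier3 and Atf3.

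Fos, which encodes an AP-1 subunit that works as a dimer with a Jun protein, was the lowest of the genes and shifted least among the 3 that stood apart. It measured 13.0, 11.8 and 12.1 CPM in IL27_pepL, 10.9, 9.7 and 10.3 CPM in IL27_scr, and 10.5, 9.8 and 11.3 CPM in plasmid control. Every IL27_pepL library was above all libraries of the other groups, but the gap to the highest plasmid control library was smaller than the SD of either group. Its log2 fold change was 0.23 ± 0.08 (SE) against plasmid control (adjusted p = 0.137) and 0.26 ± 0.08 against IL27_scr (adjusted p = 0.0992), so Fos did not pass the test in either. It rested on 292 to 444 reads per library, far fewer than Egr1. Its unadjusted 95% intervals ran from 0.05 to 0.41 and from 0.08 to 0.44.

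Jun, the usual partner of Fos, was the steadiest of the genes. Its level was 417.4, 419.4 and 421.3 CPM in IL27_pepL, 419.1, 401.1 and 405.9 CPM in IL27_scr, and 418.9, 407.6 and 441.7 CPM in plasmid control, and the groups overlapped. The log2 fold change of IL27_pepL against plasmid control was −0.01, with a 95% interval of −0.11 to 0.08 (adjusted p = 0.905), and against IL27_scr it was 0.04, with an interval of −0.06 to 0.13 (adjusted p = 0.652). The SD of Jun within groups was 0.039 on the log2 CPM scale, lower than that of all but 6.99% of genes.

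Junb, an AP-1 subunit that is a weaker activator than Jun, measured 162.4, 169.4 and 188.9 CPM in IL27_pepL, 183.9, 182.5 and 187.4 CPM in IL27_scr, and 178.2, 170.4 and 175.7 CPM in plasmid control. Replicate 3 of IL27_pepL was the highest of the 9 libraries and replicate 1 of the same group the lowest. Its log2 fold change was −0.01 ± 0.05 against plasmid control (adjusted p = 0.929) and −0.09 ± 0.05 against IL27_scr (adjusted p = 0.335). The call of Junb changed when the fit allowed for each transcript's length and GC content, an alternative added after the data were seen: its log2 fold change was −0.14 ± 0.03 against plasmid control (adjusted p = 0.0452) and −0.21 ± 0.03 against IL27_scr (adjusted p = 0.00363). The span of Junb also overlaps Prdx2, a peroxiredoxin gene on the opposite strand, which measured 222.5, 252.8 and 291.0 CPM in IL27_pepL, 206.7, 219.0 and 212.8 CPM in IL27_scr, and 212.9, 194.4 and 209.1 CPM in plasmid control (log2 fold change 0.31 ± 0.08 against plasmid control, adjusted p = 0.0589). Whether counting used strand is not given in the sources used here, so reads of the overlap cannot be told apart.

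Atf3, which is induced by cellular stress including unfolded protein and DNA damage, measured 137.8, 166.9 and 182.1 CPM in IL27_pepL, 158.6, 168.5 and 155.8 CPM in IL27_scr, and 145.0, 166.4 and 132.5 CPM in plasmid control. The groups overlapped, and its SD within groups, 0.156 on the log2 CPM scale, was the widest of the 8 genes. Its log2 fold change was 0.13 ± 0.09 against plasmid control (adjusted p = 0.414) and 0.01 ± 0.09 against IL27_scr (adjusted p = 0.960). Without IL27_pepL replicate 1, the lowest of its group, Atf3 was called higher against plasmid control (0.24 ± 0.08, adjusted p = 0.0409). In that fit 2084 of all 12125 genes were called, beside 197 with all libraries.

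Ier2 measured 190.4, 197.6 and 204.8 CPM in IL27_pepL, 178.1, 172.3 and 188.6 CPM in IL27_scr, and 189.7, 172.4 and 195.0 CPM in plasmid control. The IL27_pepL libraries were all above those of IL27_scr and overlapped plasmid control. The log2 fold change of 0.14 against IL27_scr had an unadjusted 95% interval of 0.02 to 0.26 and did not pass over all genes (adjusted p = 0.157), and against plasmid control it was 0.09 (adjusted p = 0.342). Ier3, whose product has been tied to ERK signalling and to survival under stress, measured 176.5, 148.1 and 187.5 CPM in IL27_pepL, 181.1, 160.6 and 179.4 CPM in IL27_scr, and 164.1, 136.4 and 161.1 CPM in plasmid control. Its groups overlapped, with log2 fold changes of 0.15 ± 0.09 against plasmid control (adjusted p = 0.319) and −0.03 ± 0.09 against IL27_scr (adjusted p = 0.888).

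IL-27 with the non-specific peptide left 0 of the 8 genes past the test against plasmid control, where 0.0247% of all genes passed (3 genes). DESeq2 and limma-voom also called 0 of the 8, and 0 had an unadjusted p under 0.05, which 2.57% of all genes had. The log2 fold change of IL27_scr against plasmid control was 0.01 for Egr1 (95% interval −0.17 to 0.19) and 0.07 for Dusp1 (−0.06 to 0.19), so the intervals leave out the sizes measured with pepL. The largest was Ier3 at 0.17 (−0.01 to 0.36, unadjusted p = 0.0664, adjusted p = 0.999). Junb was the gene whose IL27_scr and plasmid control libraries did not overlap, against 10% of all genes, with 182.5 to 187.4 CPM in IL27_scr and 170.4 to 178.2 CPM in plasmid control (log2 fold change 0.08, −0.04 to 0.19, adjusted p = 0.999). The median log2 fold change of the 8 genes was 0.04 in this comparison.

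**Figure D2:**
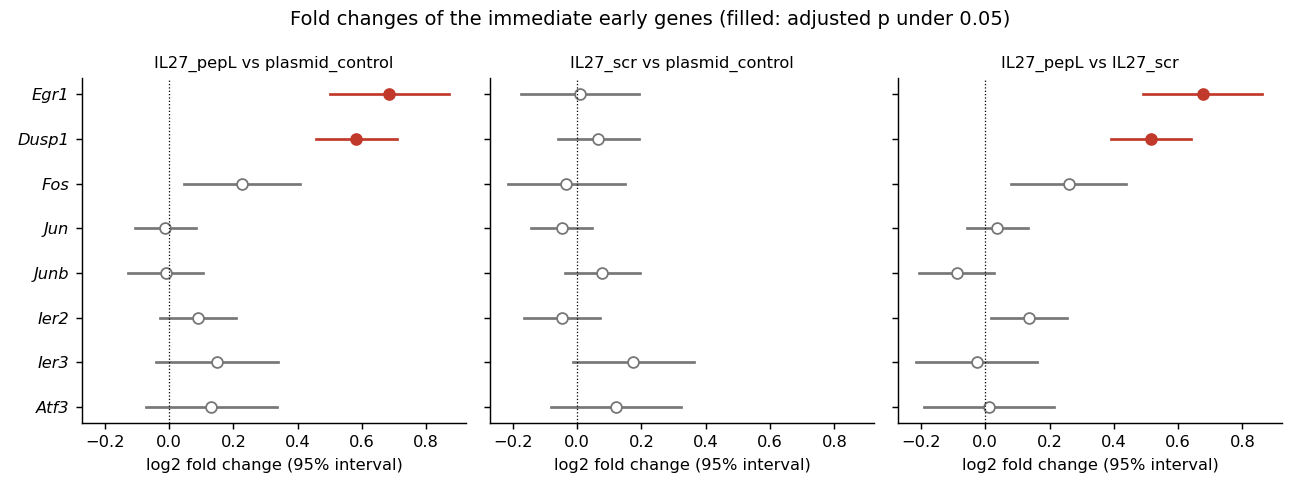
Log2 fold change of each immediate early gene in 3 comparisons, IL27_pepL over plasmid control, IL27_scr over plasmid control and IL27_pepL over IL27_scr, as points with 95% intervals; filled points passed at an adjusted p under 0.05. Egr1 (0.69 and 0.68) and Dusp1 (0.58 and 0.52) lie apart from 0 in both IL27_pepL comparisons, and the IL27_scr intervals of all 8 genes include 0.

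The order of libraries within groups was alike for several of the genes. In IL27_scr replicate 2, 7 of the 8 genes were at the lowest level of their group, and in plasmid control replicate 2 the same 7 genes (Egr1, Dusp1, Fos, Jun, Junb, Ier2 and Ier3) were also the lowest; of all genes, 18.3% were lowest in both of these libraries. Atf3 was the exception, with its highest level of the group in both libraries. IL27_pepL replicate 2 did not share this order, with 2 genes at the lowest level of the group (Fos and Ier3). In IL27_pepL replicate 3, Jun, Junb, Ier2, Ier3 and Atf3 were at the highest level of the group, whereas Egr1 and Dusp1 were at the lowest; this is the library that stood apart on the first component. Without that library the log2 fold change against plasmid control was 0.75 ± 0.08 for Egr1 and 0.60 ± 0.06 for Dusp1. Among the 8 genes the SD within groups ran from 0.039 for Jun to 0.156 for Atf3 on the log2 CPM scale. That of Egr1 was 0.137, at the 73.5th percentile of all genes, and that of Dusp1 was 0.073, at the 34.4th percentile.

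**Figure D3:**
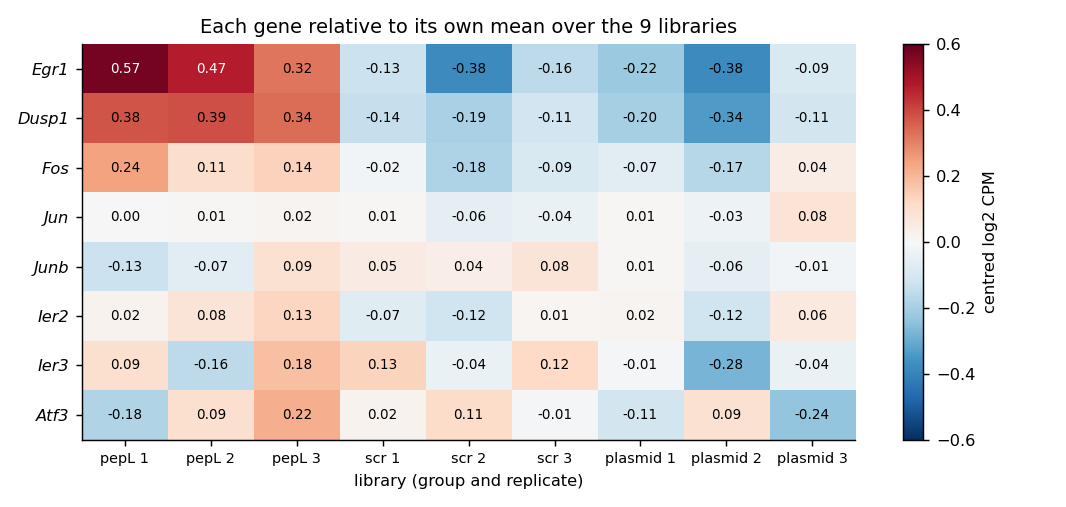
Heat map of log2 CPM centred on each gene's mean over the 9 libraries, with genes down the page and libraries across in the order IL27_pepL, IL27_scr and plasmid control. Egr1 and Dusp1 are above their mean in the 3 IL27_pepL libraries, and 7 of the 8 genes are at their group's lowest level in replicate 2 of IL27_scr and of plasmid control.

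Per kilobase of the longest basic coding transcript, the genes covered a wide range of levels. In IL27_pepL, Egr1 was the highest at 190 ± 16.6 CPM per kilobase (SD, n = 3), followed by Ier3 at 151 ± 18, Jun at 132 ± 0.619 and Ier2 at 129.8 ± 4.73. The ranges of Ier3, Jun and Ier2 overlapped one another and that of Egr1 (173 to 206) did not reach them. Junb at 95.9 ± 7.6 and Atf3 at 81.8 ± 11.3 came next and overlapped each other. Dusp1 at 38.9 ± 0.710 and Fos at 5.84 ± 0.290 stood below, each apart from its neighbour. In plasmid control the upper 4 could not be ordered: Ier3 measured 136 ± 13.4, Jun 133 ± 5.44, Ier2 122 ± 7.78 and Egr1 118 ± 11.8 CPM per kilobase, with overlapping neighbours. Junb at 96.6 ± 2.18, Atf3 at 74.6 ± 8.64, Dusp1 at 26.0 ± 2.07 and Fos at 5.00 ± 0.372 followed there without overlap. Egr1 has a second annotated transcript of 3036 bases, and with that length its level was 281 ± 24.6 in IL27_pepL, 176 ± 16.5 in IL27_scr and 175 ± 17.5 CPM per kilobase in plasmid control, the highest mean of the genes in each group. Against all genes per kilobase, Fos stood at the 33.6th percentile and Dusp1 at the 77.6th, and the other 6 between the 92.5th (Atf3) and the 96.7th (Ier3).

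**Figure D4:**
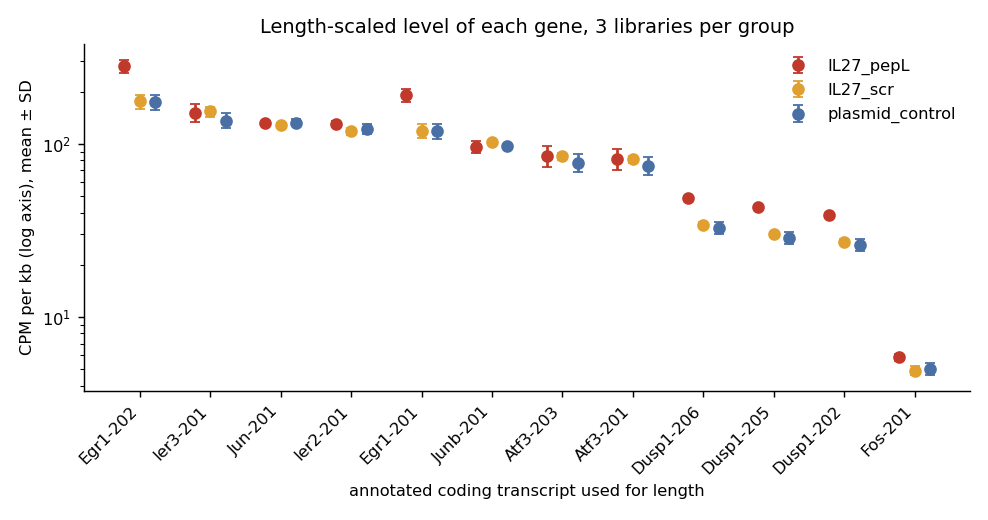
Level per kilobase on a log axis (CPM per kilobase) for each annotated coding transcript of the immediate early genes, so that some genes appear more than once. IL27_pepL, IL27_scr and plasmid control stand side by side, as points for group means with bars for the SD. Fos lies far below the rest, near 5 CPM per kilobase, and Egr1 in IL27_pepL (190 ± 16.6 with its longest transcript) lies above Ier3, Jun and Ier2.

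The other immediate early genes moved in both directions. Of 44 further genes of this class 42 were measured, Egr4 and Nr4a3 not being among the genes analysed. Against plasmid control, 5 were higher and 1 lower in IL27_pepL, with a median log2 fold change of −0.01, where 1.62% of all genes passed and the median of all genes was 0.00. Against IL27_scr, 5 were higher and 3 lower, with a median of 0.01 and 2.52% of all genes passing. IL27_scr against plasmid control gave 0 of 42 by edgeR. The calls were shared among a few genes. Sgk1, a serum- and glucocorticoid-induced kinase, measured 467.5, 457.0 and 441.3 CPM in IL27_pepL, 354.8, 328.5 and 357.7 CPM in IL27_scr, and 350.4, 310.5 and 345.1 CPM in plasmid control, with log2 fold changes of 0.44 ± 0.05 against plasmid control (adjusted p = 0.00207) and 0.39 against IL27_scr (adjusted p = 0.00338). Ctgf, a secreted matricellular protein gene, measured 81.1, 80.4 and 79.9 CPM in IL27_pepL, 57.7, 58.4 and 59.0 CPM in IL27_scr, and 62.0, 59.9 and 58.9 CPM in plasmid control (0.42 ± 0.04 against plasmid control, adjusted p = 4.93e-04). Both genes had IL27_pepL libraries wholly above the other groups.

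Trib1, a pseudokinase gene whose product steers proteins to degradation, measured 68.7, 62.1 and 63.8 CPM in IL27_pepL, 50.1, 48.1 and 46.9 CPM in IL27_scr, and 49.6, 46.4 and 49.2 CPM in plasmid control (0.42 against plasmid control, adjusted p = 0.00267). Cyr61, the relative of Ctgf, averaged 645 ± 30.9 CPM in IL27_pepL, 504 ± 14.3 CPM in IL27_scr and 498 ± 12.7 CPM in plasmid control (SD, n = 3 each; 0.37 ± 0.05 against plasmid control, adjusted p = 0.00267 by edgeR). Klf10, a Krüppel-like repressor induced by TGF-β, went the other way, with 53.6, 54.5 and 59.1 CPM in IL27_pepL, 77.1, 79.9 and 78.9 CPM in IL27_scr, and 79.7, 91.8 and 77.5 CPM in plasmid control (−0.58 ± 0.06 against plasmid control, adjusted p = 8.53e-04; −0.50 against IL27_scr, adjusted p = 0.00221). These 5 genes passed under all 18 alternatives in both IL27_pepL comparisons. The remaining calls in this class included Klf2, a Krüppel-like factor, higher at 162 ± 9.68 CPM in IL27_pepL, 132 ± 3.14 CPM in IL27_scr and 134 ± 5.13 CPM in plasmid control, and Myc, the growth-promoting transcription factor, lower against IL27_scr (−0.26, adjusted p = 0.0491), along with Mafk, which is given below among the AP-1 partners. Klf2 and Myc were outside the rule for named genes and were chosen after their values were seen.

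**Figure D5:**
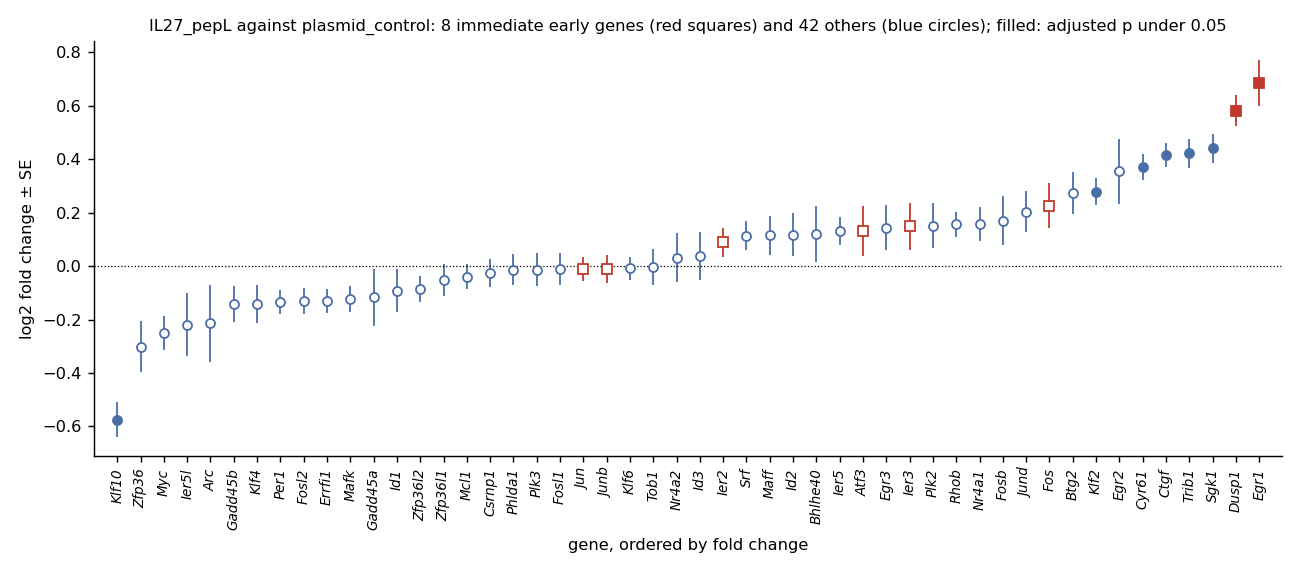
Log2 fold change ± SE of the 8 immediate early genes (red squares) and the 42 others measured (blue circles) in IL27_pepL over plasmid control. Filled points are past an adjusted p of 0.05. Of the 42, 5 genes (Ctgf, Sgk1, Cyr61, Trib1 and Klf2) are called above 0 and Klf10 below it, with the rest on both sides. Egr1 and Dusp1 are the filled squares, above 0.

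Among genes whose products act with those described above, few passed. Counts under the alternatives stand beside larger counts over all 12125 genes. Against plasmid control, DESeq2 called 774 genes and edgeR without IL27_pepL replicate 1 called 2084, beside 197 by edgeR with all libraries. Against IL27_scr, DESeq2 called 811. DESeq2 gave no adjusted p for 1411 genes against plasmid control and 1176 against IL27_scr, so these could not be called by it. Of 12 measured AP-1 partners (15 listed), 0 passed against plasmid control by edgeR, limma-voom or DESeq2 (2 higher and 1 lower by edgeR without IL27_pepL replicate 1), and Mafk, a small Maf protein gene, was lower against IL27_scr at 50.5 ± 0.150 CPM in IL27_pepL and 58.2 ± 1.86 CPM in IL27_scr (−0.20 ± 0.05, adjusted p = 0.0467 by edgeR, a call lost under 10 of 18 alternatives). Of 4 measured EGR family and corepressor genes 0 passed by edgeR or limma-voom, and 0 against plasmid control and 2 against IL27_scr were higher by DESeq2, Egr2 among them. Egr2, a close relative of Egr1, measured 6.99, 6.71 and 5.70 CPM in IL27_pepL, 5.04, 4.18 and 5.14 CPM in IL27_scr, and 4.79, 4.78 and 5.68 CPM in plasmid control (0.35 ± 0.12 against plasmid control, adjusted p = 0.118; 0.44 ± 0.12 against IL27_scr, adjusted p = 0.0688), and Nab2, an EGR corepressor, had a log2 fold change of −0.12 ± 0.05 (adjusted p = 0.191).

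Among the other dual-specificity phosphatases, relatives of Dusp1, 10 were measured, of which 0 were higher and 2 lower in each IL27_pepL comparison, where 1.2% of all genes were lower against plasmid control and 1.44% against IL27_scr. Dusp6, the cytoplasmic phosphatase for ERK, averaged 79.7 ± 3.17 CPM in IL27_pepL, 94.4 ± 1.46 CPM in IL27_scr and 97.4 ± 2.60 CPM in plasmid control (SD, n = 3 each; −0.29 ± 0.05 against plasmid control, adjusted p = 0.0104 by edgeR). Dusp8, which acts mainly on JNK and p38, averaged 25.5 ± 1.99 CPM in IL27_pepL, 32.9 ± 2.11 CPM in IL27_scr and 33.5 ± 2.13 CPM in plasmid control (−0.39 ± 0.07 against plasmid control, adjusted p = 0.0206 by edgeR). Each kept its call in 14 of 18 alternatives. Without IL27_pepL replicate 1, edgeR called 1 higher and 3 lower of the 10 against plasmid control, where 2084 of all 12125 genes were called. Of 27 MAP kinases and kinases linked to them, 0 passed in any comparison by edgeR or limma-voom. DESeq2 called 3 higher against plasmid control, Rps6ka4 and Map2k1 among them, where it called 774 of all genes. Against IL27_scr it called 2 higher, where it called 811 of all genes. Without IL27_pepL replicate 1, edgeR called 3 higher and 3 lower of the 27 against plasmid control, where 2084 of all 12125 genes were called. By edgeR with all libraries, the smallest p against plasmid control were those of Rps6ka4, the kinase MSK2 (0.23 ± 0.07, adjusted p = 0.0851), and Map2k1, the ERK kinase MEK1 (0.18 ± 0.05, adjusted p = 0.0858).

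Of 14 factors that act at immediate early promoters with serum response factor or CREB, 0 passed in any comparison by edgeR or limma-voom. DESeq2 called Ep300 lower against plasmid control, and edgeR without IL27_pepL replicate 1 called 2 lower there and 1 against IL27_scr, Creb1 among them in both. Of all 12125 genes, DESeq2 called 774 against plasmid control and 811 against IL27_scr. Without IL27_pepL replicate 1, 2084 were called by edgeR against plasmid control and 1782 against IL27_scr. The smallest p against plasmid control were those of Ep300, a histone acetyltransferase (−0.20 ± 0.06, adjusted p = 0.0973), and Creb1 (−0.17 ± 0.06, adjusted p = 0.129). Of 16 actin and muscle targets of serum response factor, 1 was higher in each IL27_pepL comparison, where 0.429% of all genes were higher against plasmid control and 1.09% against IL27_scr. This was Cnn2, a calponin gene, at 136 ± 3.87 CPM in IL27_pepL, 116 ± 1.84 CPM in IL27_scr and 117 ± 5.48 CPM in plasmid control (0.22 ± 0.05 against plasmid control, adjusted p = 0.0360 by edgeR). Its call held in 9 of 18 alternatives against plasmid control and 13 of 18 against IL27_scr. Of 18 mRNA decay factors 0 passed by edgeR or limma-voom, while DESeq2 called 2 lower against plasmid control and 1 against IL27_scr, and edgeR without IL27_pepL replicate 1 called 1 higher and 2 lower against plasmid control. Against plasmid control, Dcp1a, a decapping factor, was at −0.18 ± 0.05 (adjusted p = 0.0877) and Btg2, a deadenylation cofactor, at 0.27 ± 0.08 (adjusted p = 0.0883). Of 11 partners of Atf3 in the ATF4 and CHOP stress pathway 0 passed by edgeR or limma-voom, while DESeq2 called Cebpg lower against IL27_scr, and edgeR without IL27_pepL replicate 1 called 3 higher against plasmid control, Cebpb among them. Against plasmid control, Cebpg was at −0.24 ± 0.08 (adjusted p = 0.114) and Cebpb at 0.29 ± 0.10 (adjusted p = 0.125). Among the lists with 0 calls by edgeR in IL27_pepL against plasmid control, an unadjusted p under 0.05 was reached by 4 of 12 AP-1 partners, 2 of 4 EGR genes, 6 of 27 kinases, 2 of 14 promoter factors, 4 of 18 decay factors and 3 of 11 stress genes, beside 23% of all genes. In IL27_scr against plasmid control, edgeR called 0 genes in each of these lists.

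Likeness of pattern was sought among 9696 genes that averaged 5 CPM or more, with predicted genes (Gm numbers and Rik names) passed over. Over the 9 libraries the pattern nearest to that of Egr1 was that of Dusp1, by the root mean square difference of centred log2 CPM (0.0974). Next came S100a11, a calcium-binding protein gene (0.138), Sgk1 (0.142), Egr2 (0.152) and Trib1 (0.154). For Dusp1 the nearest were Sgk1 (0.0706), Trib1 (0.0899), Ctgf (0.0950), Egr1 (0.0974) and S100a11 (0.10). S100a11 measured 232.9, 217.8 and 220.3 CPM in IL27_pepL, 163.4, 147.9 and 173.4 CPM in IL27_scr, and 173.9, 149.3 and 192.6 CPM in plasmid control, all IL27_pepL libraries being the highest (0.38 ± 0.08 against plasmid control, adjusted p = 0.0341), a call lost under 7 of 18 alternatives. Against IL27_scr its call was lost under 2 of 18, and the allowance for length and GC content was among the losses in both. All libraries share 1 table and 1 scaling, and the IL27_pepL and plasmid control samples that carry these patterns are the ones compared above, so likeness of pattern is a description.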

How the data were processed

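RNA sequencing of 9 libraries, 3 per group, gave raw counts per gene. The authors deposited these as 1 table of whole-number counts with differing library totals (27609884 to 35959983); 0 columns belonged to no sample. Per the submitters' processing notes, FastQC, STAR (with 1.5.1 beside it), featureCounts, Subread 1.6.1, edgeR 3.22.5 and the mm10 build were used. The sources used here name no annotation, strand setting or rule for multimapping reads, and do not say that replicates were separate cultures, so p-values may measure technical spread only. Replicates within a group correlated at 0.993 to 0.997 and differed beyond sampling noise.

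Counts were fitted in R 4.3.3 with edgeR 4.0.16 (TMM, quasi-likelihood test, group as the only term, all 9 libraries). The low-count filter removed 0 genes. Genes passed at a Benjamini-Hochberg adjusted p-value under 0.05 over 12125 genes. The standard error is the log2 fold change divided by the square root of F, and 95% intervals are unadjusted. CPM uses TMM-scaled library sizes. Gene structures came from GENCODE for mm10 and promoters from RefSeq. On simulated counts for IL27_pepL against plasmid control with 12125 genes, 74% of genes changed 1.25-fold and 94% of those changed 1.5-fold were recovered. The simulated spread followed the trend with expression level alone. It held no spread particular to a gene and no length effect or outlying library, so recovery in the real data may be lower.

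The members and lists were chosen with earlier results of these data known. Named genes are the 8 members, up to 4 called genes per list and comparison by smallest p (2 by smallest p where a list had no call), and the 5 nearest in pattern to each called member averaging 5 CPM or more. Predicted genes were passed over in the choice by pattern. Alternatives were DESeq2 1.42.0, limma-voom 3.58.1, other size factors and filters, fits of the groups compared, a replicate block, removal of Rn45s, Il27 and Ebi3, each library left out and, added after the data were seen, an offset in the fit for each transcript's length and GC content.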

Additional observations from a re-analysis of the deposited data

How the results depend on the processing

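Egr1 and Dusp1 passed in both IL27_pepL comparisons under all 18 alternatives, with log2 fold changes of 0.61 to 0.76 for Egr1 and 0.51 to 0.64 for Dusp1 against plasmid control, and 0.60 to 0.74 and 0.46 to 0.53 against IL27_scr. Of 432 values of the 8 genes under the alternatives 413 kept their direction and side of the threshold, 0 lost a call, 3 gained one (Junb with the offset in both IL27_pepL comparisons and Atf3 without IL27_pepL replicate 1, given above) and 16 changed sign, in values that were not called. With the offset, Ier2 was −0.054 against plasmid control and Atf3 −0.043 against IL27_scr in IL27_pepL. Ier3 in IL27_pepL against plasmid control was 8.15e-04 with the offset, beside 0.15 without it. With each library left out in turn, IL27_pepL against plasmid control ran from −0.037 to 0.025 for Jun and from −0.073 to 0.041 for Junb, IL27_scr against plasmid control ran from −0.062 to 0.085 for Egr1 and from −0.084 to 0.021 for Fos, and IL27_pepL against IL27_scr ran from −0.095 to 0.068 for Ier3 and from −0.077 to 0.12 for Atf3; the cause was not tested. Counts over all genes moved more. For IL27_pepL against plasmid control (197) they were 774 with DESeq2, 48 with only the groups compared and 36 to 2084 with a library left out (leaving out IL27_pepL replicate 1 gave 2084 and replicate 2 gave 55; IL27_scr replicate 2 gave 127 and replicate 3 gave 110; plasmid control replicates 1, 2 and 3 gave 55, 36 and 38). For IL27_pepL against IL27_scr (306) they were 811 with DESeq2, 165 with only the groups compared, 461 with the offset and 69 to 1782 with a library left out (leaving out IL27_pepL replicate 1 gave 1782 and replicate 2 gave 89, IL27_scr replicates 1, 2 and 3 gave 72, 69 and 94, and plasmid control replicate 1 gave 197). For IL27_scr against plasmid control 0 genes passed once Rn45s, Il27 and Ebi3, its 3 calls, were removed. In the 139 genes of the lists, calls against plasmid control (9) were 19 with DESeq2, 5 with only the groups compared and 5 to 32 with a library left out (32 for IL27_pepL replicate 1, 5 for plasmid control replicate 2 or 3), and against IL27_scr (11) were 22 with DESeq2, 7 with only the groups compared, 18 with the offset and 5 to 26 with a library left out (26 and 6 for IL27_pepL replicates 1 and 2, 6, 6 and 5 for the 3 IL27_scr libraries). Within the 250 bases before the RefSeq start, TATAAA was found in 1 promoter.

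Same-numbered libraries correlated in their deviations at −0.06 to 0.318 and differently numbered ones at −0.235 to 0.130. Of the 9 same-numbered correlations 8 were over 0 and 4 were over 0.1. Of the 9 libraries 4 correlated best with their own number in both other groups, so whether the numbers pair the samples was not settled, and the labels do not say that they do. A replicate block gave 1019 calls over all genes and 19 in the lists against plasmid control, 1110 and 25 against IL27_scr, and called the same 2 members.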
